A study of Homo sapiens with 9 samples.

Results

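A set of 8 genes through which colon cancer cells signal to inflammatory cells was followed in WiDr cells after siRNA against the long noncoding RNA LIMp27. They are the CXC chemokine genes CXCL8, CXCL1, CXCL2 and CXCL3, the CC chemokine gene CCL20, the cytokine gene IL18, the interleukin-1 receptor antagonist gene IL1RN, and SPP1, which encodes osteopontin. The members were picked by gene name as secreted inflammatory genes, and make up 8 of the 25159 genes listed in either deposited table. Because they were chosen with their levels against control siRNA already known, those levels are given as a description, with no p-value, and calls against control siRNA are counted only beside their share among all genes. WiDr is an established line from a human colon adenocarcinoma and carries mutant p53. Transfection was with 1 of 3 siRNAs at 100 nM for 24 h, either control siRNA or the LIMp27 siRNAs numbered LIMp27 siRNA-1 and LIMp27 siRNA-2, and each condition was sequenced in 3 libraries. The study asked how LIMp27 supports proliferation of such cells, and used both siRNAs against the same RNA. All 9 libraries came from 1 cell line and 1 time point. The labels do not say whether the 3 libraries of a condition were separate cultures, and the paper's legends call them biological or experimental repeats. P-values therefore measure the spread between these libraries.

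Chemokines are small secreted proteins that draw leukocytes along a gradient. The CXC chemokines encoded by CXCL8, CXCL1, CXCL2 and CXCL3 act on neutrophils through the receptors CXCR1 and CXCR2, while CCL20 draws cells that carry CCR6. Intestinal epithelium makes several of them when NF-κB is active, and their mRNAs are short-lived where AU-rich elements in the 3′ UTR recruit decay factors. IL-18 is kept in epithelial cells as a precursor that caspases cleave, the product of IL1RN occupies the interleukin-1 receptor without signaling, and osteopontin binds integrins and CD44.

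Between 14361629 and 21524623 reads per library were counted to genes. Levels per library are CPM, each library's reads for a gene relative to its total, with TMM factors over all 9 libraries. Of 12 colon epithelial markers, 10 reached a mean of 1 CPM in every condition, CDX1 had no reads, and their summed level was 15420 to 16572 CPM after control siRNA, 11279 to 11563 after LIMp27 siRNA-1 and 9636 to 10750 after LIMp27 siRNA-2. Most of this sum is KRT8 (means of 8929, 5896 and 5332 CPM) and KRT18 (4536, 3271 and 2859 CPM). KRT19 (1148, 900 and 852 CPM), KRT20 (362, 321 and 142), LGALS4 (143, 71.7 and 84.6) and CEACAM5 (15.9, 3.92 and 5.01) were also lower with both siRNAs. EPCAM (691, 775 and 749 CPM) and VIL1 (109, 120 and 188 CPM) were not lower than after control siRNA. CDH1 (94.6, 77.4 and 110 CPM) and CDX2 (1.56, 1.78 and 1.02 CPM) differed in direction between the siRNAs. Of 12 leukocyte markers, CD3E, CD2, MS4A1, TYROBP and AIF1 were at 0, PTPRC had 3 reads in all, and LYZ, which secretory epithelium also makes, was the single one that reached 1 CPM. The list summed to 1923 to 1956, 1870 to 1937 and 1239 to 1347 CPM in the same order. Fibroblast markers summed to at most 2.49, 3.89 and 13.0 CPM, with COL1A2, COL3A1, DCN and POSTN at 0, and the last of these sums is mostly LUM (means of 1.61, 1.76 and 11.2 CPM). The endothelial markers summed to at most 0.278, 0.158 and 0.254 CPM. The part of these shifts in the levels below was not tested, and in bulk RNA fewer cells of a kind and less RNA per cell cannot be told apart. LINC01356, the annotated gene of LIMp27, had 0, 0 and 2 reads in the control libraries, 0 in each LIMp27 siRNA-1 library and 0, 2 and 1 after LIMp27 siRNA-2, so its reduction could not be read from these counts. The paper reports that the knockdown in the WiDr cells used for RNA-seq was checked by qPCR.

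SPP1 and IL1RN stood lowest relative to control siRNA with both LIMp27 siRNAs, CXCL8, CCL20, IL18 and CXCL1 were lower to a smaller extent, CXCL3 was lower after LIMp27 siRNA-1, and the libraries of CXCL2 overlapped between the 3 conditions. After LIMp27 siRNA-1, 7 of the 8 genes passed the threshold (an adjusted p under 0.05 by edgeR's quasi-likelihood test over all tested genes) as lower and none as higher, in a comparison in which 28.3% of all tested genes were called lower and 26.5% higher. After LIMp27 siRNA-2, 6 of the 8 were called lower and none higher, against 29% and 27.7% of all tested genes. The libraries of 7 genes lay wholly below the control libraries after LIMp27 siRNA-1, as did those of 30.3% of all tested genes, and the libraries of 6 genes did so after LIMp27 siRNA-2, as did 31.6% of all. Nothing is read from these shares, since the genes were selected on the same comparisons. All 8 passed the filter on low counts in every comparison. Their median log2 fold change was −1.28 after LIMp27 siRNA-1 and −1.7 after LIMp27 siRNA-2, beside medians of 0.001 and 0.012 over all tested genes. The 3 control libraries enter both comparisons.

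**Figure D1:**
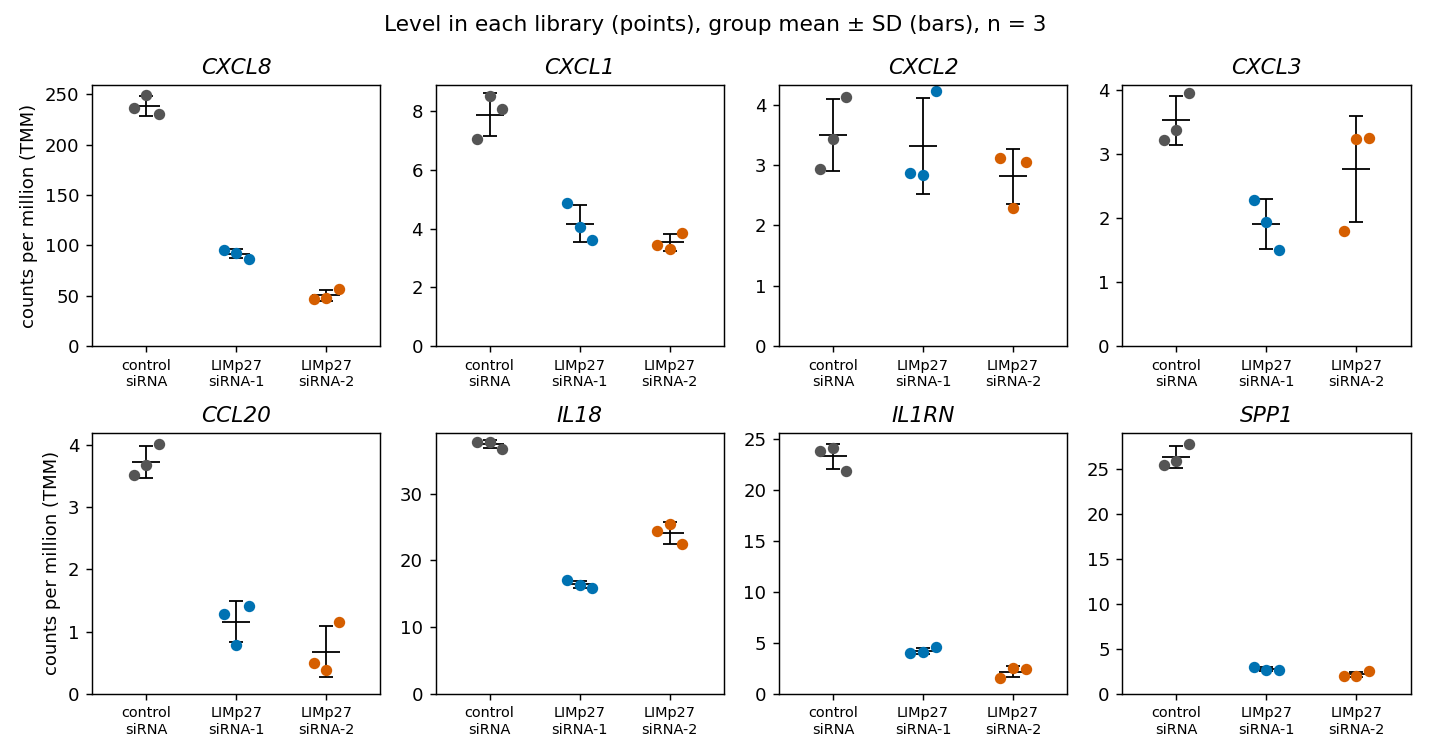
Level of each of the 8 genes in CPM with TMM factors (y axis, from 0, own scale per gene) in the 3 libraries of each condition (points, x axis), with the group mean and SD as bars. For all genes but CXCL2 the LIMp27 siRNA-1 libraries lie below the control libraries, and for IL18 the LIMp27 siRNA-2 libraries lie between the other groups.

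Sequence of the 4 CXC chemokine genes is shown first, because these genes lie in 1 cluster and share a start-site motif yet differed in level. The promoters below run from 250 bases before to 50 bases after the start site, are taken from RefSeq on GRCh38.p14, and are written 5′ to 3′ along the gene, with the NF-κB-type site GGAATTTCC in capitals. They lie at chr4:73740319-73740618 (plus strand), chr4:73869143-73869442 (plus), chr4:74099146-74099445 (minus) and chr4:74038640-74038939 (minus).
CXCL8 promoter: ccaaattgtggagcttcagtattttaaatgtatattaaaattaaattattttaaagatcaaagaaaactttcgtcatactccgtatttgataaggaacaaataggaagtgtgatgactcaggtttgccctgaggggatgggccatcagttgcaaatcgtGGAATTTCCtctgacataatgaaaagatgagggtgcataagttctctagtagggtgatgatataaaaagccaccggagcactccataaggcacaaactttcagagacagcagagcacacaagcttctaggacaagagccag
CXCL1 promoter: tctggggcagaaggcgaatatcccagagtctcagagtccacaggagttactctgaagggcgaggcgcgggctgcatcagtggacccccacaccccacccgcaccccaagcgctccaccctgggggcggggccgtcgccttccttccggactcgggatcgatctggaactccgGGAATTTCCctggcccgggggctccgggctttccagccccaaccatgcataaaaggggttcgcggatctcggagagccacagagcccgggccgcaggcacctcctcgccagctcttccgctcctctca
CXCL2 promoter: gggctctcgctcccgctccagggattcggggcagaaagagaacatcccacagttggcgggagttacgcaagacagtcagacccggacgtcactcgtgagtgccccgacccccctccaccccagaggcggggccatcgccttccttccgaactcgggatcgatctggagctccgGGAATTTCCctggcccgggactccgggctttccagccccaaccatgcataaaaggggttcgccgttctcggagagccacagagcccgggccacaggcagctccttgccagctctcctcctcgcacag
CXCL3 promoter: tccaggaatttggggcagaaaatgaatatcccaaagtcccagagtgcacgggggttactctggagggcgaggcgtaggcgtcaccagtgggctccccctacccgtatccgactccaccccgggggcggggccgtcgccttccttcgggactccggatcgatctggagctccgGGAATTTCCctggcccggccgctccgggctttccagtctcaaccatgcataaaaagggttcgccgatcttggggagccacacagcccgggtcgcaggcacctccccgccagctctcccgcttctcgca

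GGAATTTCC occurred once in each of the 4 promoters, on the gene's own strand, starting 91 bases before the start site in CXCL8, 78 in CXCL1, 77 in CXCL2 and 78 in CXCL3. On either strand it was found in 0.461% of 35116 RefSeq promoters of this length. The site overlaps matches to the longer NF-κB consensus in CXCL1, CXCL2 and CXCL3, and that consensus was present in 11.3% of all promoters. CCL20 lacks GGAATTTCC in this window and has a consensus match starting 79 bases before its start site on the opposite strand. The AP-1 motif TGANTCA was found in CXCL8, 137 bases before the start, and in promoter 1 of the 3 listed for IL1RN, 223 bases before, and in 7.71% of all promoters. TATAAA occurred in CXCL8, CCL20 and IL1RN promoter 3 (11.5% of all), and TTGCNNAA, a strict form of the C/EBP motif, in CXCL2 (10.5% of all). Sites that depart from these patterns were not searched for, so a promoter without a match can still hold such a site. The SPP1 promoter held none of these motifs. Promoter identity was 71.9% between CXCL1 and CXCL2, 82.5% between CXCL1 and CXCL3, 73.8% between CXCL2 and CXCL3, and 45.2% to 47.9% between CXCL8 and the other 3.

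CXCL8 encodes interleukin-8 and spans chr4:73740506-73743716 on the plus strand (GRCh38, as the other gene coordinates). It had 236, 249 and 230 CPM in the control libraries, 95, 92.7 and 86.4 CPM after LIMp27 siRNA-1 and 46.5, 48.1 and 56.4 CPM after LIMp27 siRNA-2. The 3 conditions did not overlap, and the LIMp27 siRNA-2 libraries were the lowest. The means were 238 ± 9.9, 91.4 ± 4.45 and 50.3 ± 5.35 CPM (SD, n = 3), so that 38.3% and 21.1% of the control level remained with the 2 siRNAs. The log2 fold change was −1.38 (SE 0.05) after LIMp27 siRNA-1 and −2.24 (SE 0.07) after LIMp27 siRNA-2. With 12370 reads over the control libraries and 2520 over the LIMp27 siRNA-2 libraries, CXCL8 was the most deeply counted of the 8 genes.

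CXCL1 lies at chr4:73869393-73871242 on the plus strand. Its level was 7.07, 8.52 and 8.07 CPM after control siRNA, 4.86, 4.05 and 3.6 CPM after LIMp27 siRNA-1, and 3.46, 3.3 and 3.86 CPM after LIMp27 siRNA-2. All 6 LIMp27 siRNA libraries were below the control libraries, and the ranges of both siRNAs overlapped each other. The mean level was 52.8% and 44.8% of the control mean, with log2 fold changes of −0.93 (SE 0.15) and −1.15 (SE 0.16).

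CXCL2 lies at chr4:74097035-74099293 on the minus strand. In the control libraries it had 2.94, 3.43 and 4.12 CPM, beside 2.87, 2.84 and 4.23 after LIMp27 siRNA-1 and 3.11, 2.28 and 3.05 after LIMp27 siRNA-2. The 3 conditions overlapped, and LIMp27 siRNA-1 replicate 3 was the highest of the 9 libraries. CXCL2 was not called with either siRNA, at log2 fold changes of −0.06 (SE 0.2, 95% interval −0.46 to 0.34) and −0.3 (SE 0.21, −0.72 to 0.12). The sign of the first turned without control siRNA replicate 3 (0.08), LIMp27 siRNA-1 replicate 1 (0.02) or LIMp27 siRNA-1 replicate 2 (0.04), and its lowest value with a library left out was −0.29.

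CXCL3, at chr4:74036589-74038807 on the minus strand, had 3.22, 3.37 and 3.95 CPM after control siRNA. After LIMp27 siRNA-1 it had 2.28, 1.94 and 1.5 CPM, all below the control libraries. After LIMp27 siRNA-2 it had 1.8, 3.23 and 3.25 CPM, and 2 of these 3 libraries lay within the control range while replicate 1 lay below it. The log2 fold change was −0.89 (SE 0.22) after LIMp27 siRNA-1 and −0.37 (SE 0.23, 95% interval −0.82 to 0.08) after LIMp27 siRNA-2, and the latter was not called.

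CXCL1, CXCL2 and CXCL3 are near copies of each other, with coding sequences 90.8% to 94.4% identical over 324 bases. Of the 50-base words of 1 transcript per gene, 5.73% of CXCL1, 9.24% of CXCL2 and 5.26% of CXCL3 also occur in another gene of the trio, so part of their reads could be split or dropped by the counting, and their separate values are less certain than that of CXCL8, which shares none. Summed into 1 row, the 3 genes had a log2 fold change of −0.67 (SE 0.11) after LIMp27 siRNA-1 and −0.71 (SE 0.12) after LIMp27 siRNA-2, a sum to which CXCL1 gives most of the control reads. Measured from the first base of CXCL8, that of CXCL1 lies at 128.9 kb, of CXCL5 at 258.3 kb, of CXCL3 at 298.3 kb and of CXCL2 at 358.8 kb. CXCL5, a neutrophil chemokine gene between the outer members, had 7 reads in all 9 libraries and could not be tested, and CXCL6, PPBP, PF4 and PF4V1, also of this cluster, had no listed reads.

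**Figure D2:**
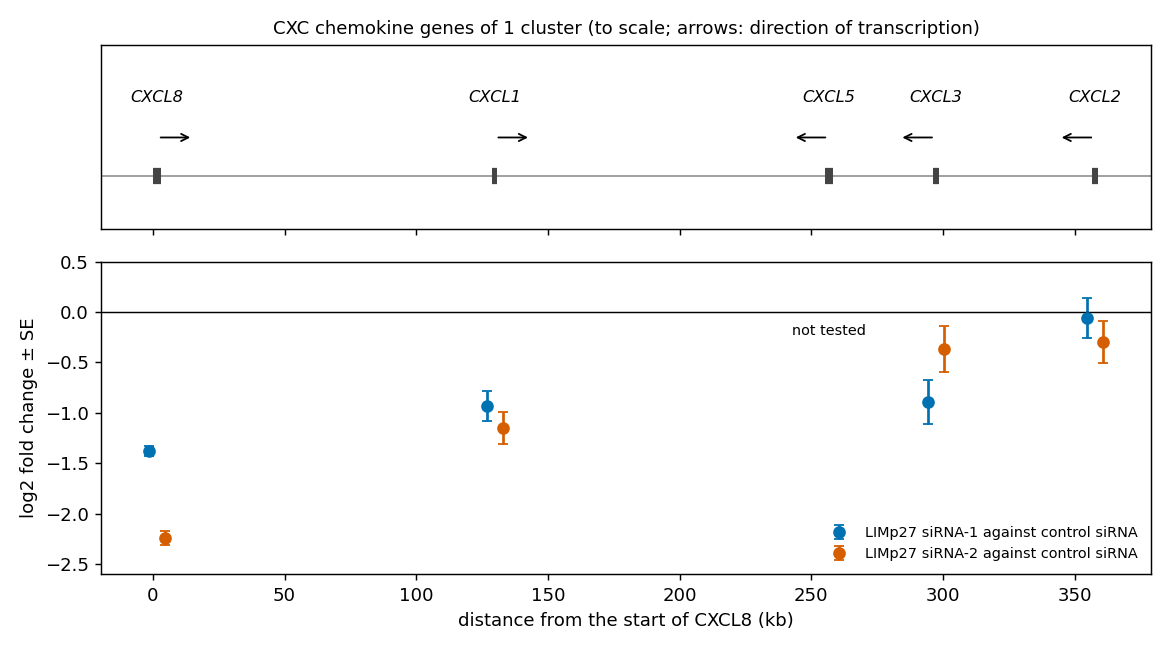
The upper panel maps the CXC chemokine genes by distance from the start of CXCL8 in kb, to scale, with arrows for the direction of transcription. The lower panel gives the log2 fold change of each gene with its SE for both LIMp27 siRNAs against control siRNA. CXCL8, at the left end, has values of −1.38 and −2.24, while CXCL2, at the right end, has −0.06 and −0.3.

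The 3′ UTRs of the same genes hold AU-rich pentamers. The stretches of 30 bases with the most ATTTA in each are given from the GENCODE 29 transcripts, with ATTTA in capitals, and lie at chr4:73743108-73743137 (plus strand), chr4:73870665-73870694 (plus), chr4:74097590-74097619 (minus) and chr4:74037090-74037119 (minus).
CXCL8 3′ UTR: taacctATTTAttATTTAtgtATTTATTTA
CXCL1 3′ UTR: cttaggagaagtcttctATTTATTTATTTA
CXCL2 3′ UTR: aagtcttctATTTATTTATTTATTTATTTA
CXCL3 3′ UTR: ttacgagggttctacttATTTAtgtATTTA

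ATTTA occurred 9 times in the 1252 bases of the CXCL8 3′ UTR, 5 times in 706 bases of CXCL1, 10 times in 721 bases of CXCL2 and 7 times in 673 bases of CXCL3. CCL20 had 3 in 451 bases and SPP1 2 in 530 bases. IL18 (345 bases) and IL1RN (1145 bases) had 0. Over 18639 genes with a 3′ UTR, 65.3% held at least 1 ATTTA, with a median of 1 and a median density of 1.46 per kb, beside 7.19 per kb in CXCL8 and 13.9 per kb in CXCL2. Among 3′ UTRs within 1.5-fold of its length, as many pentamers were found in 0.0724% for CXCL2, 1.15% for CXCL3, 3.09% for CXCL8, 6.86% for CXCL1, 10.5% for CCL20 and 28.6% for SPP1. No relation between pentamers and fold changes was tested. AATTTA, an AU-rich hexamer, was present in CXCL8 (2 copies), CXCL3 (1) and SPP1 (1), and in 40.0% of all 3′ UTRs.

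CCL20, the ligand of CCR6, lies at chr2:227805739-227817564 on the plus strand. It was counted with 62, 60 and 72 reads in the control libraries, 22, 15 and 31 after LIMp27 siRNA-1 and 10, 6 and 17 after LIMp27 siRNA-2. As CPM these were 3.51, 3.68 and 4.01, then 1.29, 0.788 and 1.41, then 0.501, 0.38 and 1.15. Every LIMp27 siRNA library was below every control library, and the ranges of both siRNAs overlapped through LIMp27 siRNA-2 replicate 3. The log2 fold changes were −1.67 (SE 0.24) and −2.48 (SE 0.31), and the SD of the LIMp27 siRNA-2 libraries was 61.2% of their mean, the widest of the 8 genes.

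IL18 lies at chr11:112143251-112164117 on the minus strand. Control libraries had 37.8, 37.8 and 36.7 CPM, LIMp27 siRNA-1 libraries 17.0, 16.3 and 15.9 CPM, and LIMp27 siRNA-2 libraries 24.4, 25.5 and 22.4 CPM. The 3 conditions were apart, and here LIMp27 siRNA-1 was the lowest. The level was 43.9% of control after LIMp27 siRNA-1 and 64.4% after LIMp27 siRNA-2, with log2 fold changes of −1.19 (SE 0.07) and −0.62 (SE 0.08).

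IL1RN, whose product blocks the interleukin-1 receptor, lies at chr2:113107214-113134016 on the plus strand. It had 23.8, 24.1 and 21.9 CPM after control siRNA, 3.98, 4.1 and 4.55 CPM after LIMp27 siRNA-1, and 1.55, 2.54 and 2.44 CPM after LIMp27 siRNA-2. No condition overlapped another. Means were 23.3 ± 1.19, 4.21 ± 0.302 and 2.18 ± 0.541 CPM (SD, n = 3), which is 18.1% and 9.34% of control for the 2 siRNAs, and the log2 fold changes were −2.46 (SE 0.11) and −3.44 (SE 0.15).

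SPP1 lies at chr4:87975650-87983426 on the plus strand, outside the CXC chemokine cluster. Control libraries had 25.5, 25.9 and 27.8 CPM, LIMp27 siRNA-1 libraries 2.99, 2.63 and 2.69 CPM, and LIMp27 siRNA-2 libraries 2.0, 1.97 and 2.5 CPM. Of the 8 genes SPP1 was the farthest below control with each siRNA, at 10.5% and 8.18% of the control level. The log2 fold changes were −3.25 (SE 0.12) and −3.61 (SE 0.13), from 1372 reads over the control libraries and 160 and 108 over the LIMp27 siRNA libraries.

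**Figure D3:**
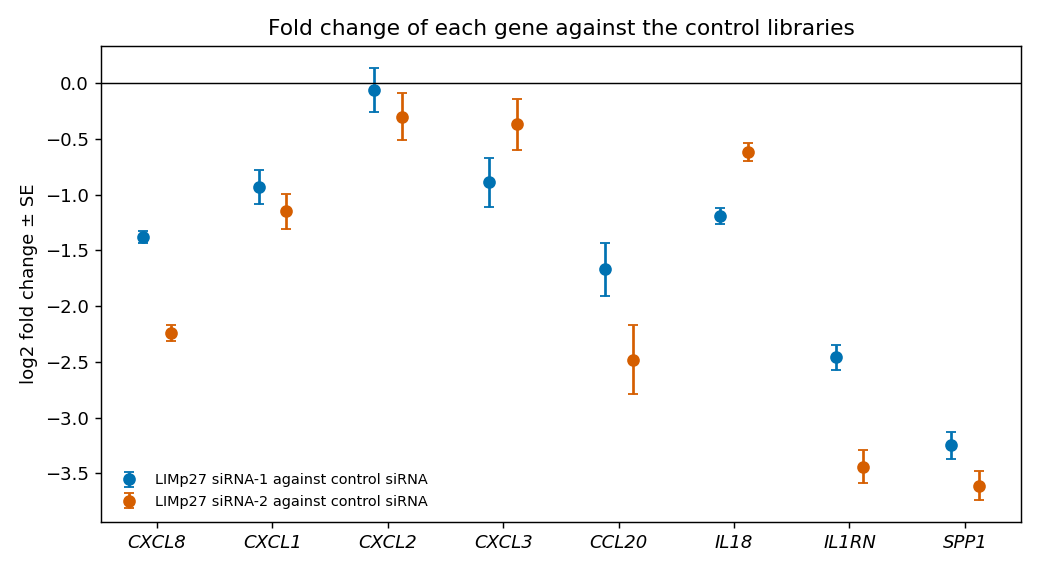
Log2 fold change (y axis) of each of the 8 genes (x axis) after LIMp27 siRNA-1 (blue) and LIMp27 siRNA-2 (orange) against control siRNA, with the SE of the fit as bars. Values run from −0.06 for CXCL2 after LIMp27 siRNA-1 to −3.61 for SPP1 after LIMp27 siRNA-2.

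Compared with each other per length, on the deposited FPKM scale, the genes kept CXCL8 first and IL18 second in all 3 conditions. After control siRNA the order of mean levels was CXCL8 (228), IL18 (33.7), SPP1 (24.9), IL1RN (19.4), CXCL1 (9.03), CCL20 (5.27), CXCL2 (4.25) and CXCL3 (3.26), and the libraries of neighbours overlapped from CCL20 to CXCL3 only. After LIMp27 siRNA-1 it was CXCL8 (93.3), IL18 (15.8), CXCL1 (5.1), CXCL2 (4.3), IL1RN (3.75), SPP1 (2.79), CXCL3 (1.89) and CCL20 (1.76), with overlaps between CXCL1 and CXCL2, CXCL2 and IL1RN, and CXCL3 and CCL20. After LIMp27 siRNA-2 it was CXCL8 (51.5), IL18 (23.3), CXCL1 (4.34), CXCL2 (3.65), CXCL3 (2.74), SPP1 (2.18), IL1RN (1.94) and CCL20 (1.03), and all neighbours from CXCL2 to CCL20 overlapped. SPP1 and IL1RN thus stood above CXCL1 in the control order and below CXCL3 after LIMp27 siRNA-2. These levels divide by the mean length of a gene's annotated transcripts, which was 1001 bases for CXCL8 where its principal transcript has 1705, and 1032 for CXCL3 where it has 1075, so the spacing between genes depends on that choice, and so does the order of the low ones. Per kilobase of 1 transcript, a scale added after seeing the data, CXCL3 ranked above CXCL2 after control siRNA (7 and 8) and after LIMp27 siRNA-2 (4 and 5), and above SPP1 after LIMp27 siRNA-1 (6 and 7).

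LIMp27 siRNA-2 was also compared directly after LIMp27 siRNA-1, a comparison without the control libraries. In it 2 of the 8 genes were lower, CXCL8 and IL1RN, and 1 was higher, IL18, beside 22.4% and 23.1% of all tested genes. CXCL8 was lower after LIMp27 siRNA-2 by a log2 fold change of −0.84 (SE 0.07, adjusted p = 1.1e-11), which is 55.7% of its level after LIMp27 siRNA-1. IL1RN differed by −0.96 (SE 0.21, adjusted p = 3.5e-04), or 51.3%. IL18 was higher by 0.57 (SE 0.09, adjusted p = 2.2e-06). For each of these 3 genes the libraries of both siRNAs did not overlap. The share of all tested genes with such a separation was not computed, so nothing is read from it.

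A difference between the siRNAs did not pass the threshold for the other 5 genes. SPP1 differed by −0.34 (95% interval −0.78 to 0.09, adjusted p = 0.212), although all 3 LIMp27 siRNA-2 libraries were below those of LIMp27 siRNA-1. CXCL1 differed by −0.21 (−0.57 to 0.15, adjusted p = 0.365) and CXCL2 by −0.23 (−0.64 to 0.19, adjusted p = 0.407). CCL20 differed by −0.8 (−1.57 to −0.03, adjusted p = 0.0983), and passed the threshold, at −1.37, when LIMp27 siRNA-2 replicate 3 was left out. CXCL3 differed by 0.54 (0.04 to 1.04, adjusted p = 0.0859), passed it at 0.8 without LIMp27 siRNA-2 replicate 1, and stood at −0.03 as part of the sum with CXCL1 and CXCL2. The intervals are unadjusted and are widest for CCL20, the gene with the fewest reads.

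**Figure D4:**
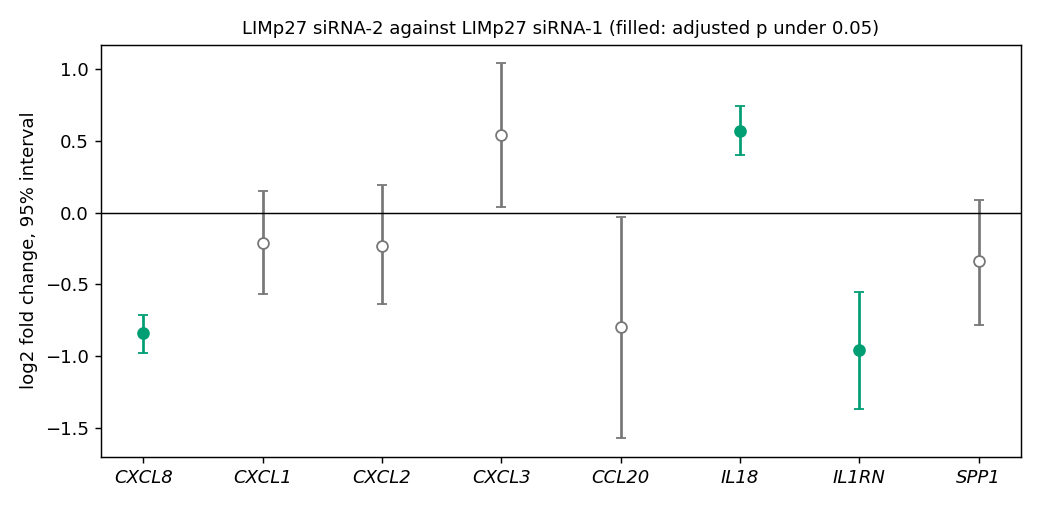
Log2 fold change of LIMp27 siRNA-2 against LIMp27 siRNA-1 (y axis) for the 8 genes (x axis), with the unadjusted 95% interval as bars and filled points for an adjusted p under 0.05. CXCL8 (−0.84) and IL1RN (−0.96) are filled below 0 and IL18 (0.57) above 0.

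Across the 9 libraries, the log2 CPM of SPP1, IL1RN, CXCL8, CXCL1 and CCL20 varied alike, with Pearson's r from 0.941 to 0.985 between pairs, as a description of 3 groups of 3 libraries on shared scaling. CXCL2 had an r of 0.383 with CXCL1 and −0.121 with CXCL3, and IL18 an r of 0.635 with CXCL8 and 0.837 with SPP1. Among 10285 genes with a mean of at least 100 reads per library, the 3 with a pattern most like that of SPP1 were PTBP3 (r = 0.997), WDR36 (0.995) and MEST (0.995). For IL1RN they were NDC1 (0.995), PLAUR (0.994) and SLC2A1 (0.993), and for CXCL8 RCC1, ABCE1 and LRRC8B (0.996 each). An r of at least 0.95 was reached by 376 genes for SPP1, 411 for IL1RN and 515 for CXCL8, so such likeness was common in these libraries. The like genes moved less, with log2 fold changes of −1.02 and −1.11 for PTBP3, a splicing regulator, and −0.85 and −1.13 for the glucose transporter gene SLC2A1.

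Few other chemokine genes were read. Counts for this and the following lists stand beside the shares over all tested genes. These were 28.3% lower and 26.5% higher after LIMp27 siRNA-1, and 29% and 27.7% after LIMp27 siRNA-2. Of 40 other chemokine ligands 5 could be tested, 2 of them lower after LIMp27 siRNA-1 and 3 after LIMp27 siRNA-2, and none were higher (1 after LIMp27 siRNA-2 without control siRNA replicate 2 or without the filter on low counts). CXCL16, a membrane-bound chemokine that can be shed, fell from 81.4 ± 4.09 CPM after control siRNA to 31.9 ± 2.32 after LIMp27 siRNA-1 and 39.0 ± 2.33 after LIMp27 siRNA-2 (SD, n = 3). Its log2 fold changes were −1.35 (SE 0.06, adjusted p = 2.2e-17) and −1.05 (SE 0.07, adjusted p = 7.9e-14). CCL28, a mucosal chemokine, fell with both siRNAs, from 1.09 CPM to 0.0694 and 0.319 CPM on 78 reads over the 9 libraries (adjusted p = 2.0e-06 and 0.00171). CCL22, with 151 reads over the 9 libraries, fell after LIMp27 siRNA-2 (log2 fold change −1.51, adjusted p = 0.00216) and had −0.23 (adjusted p = 0.572) after LIMp27 siRNA-1. MIF, the most abundant of the 5, had −0.02 and −0.03, and CX3CL1 had 0.05 and 0.68. Both were chosen after their values were seen, and neither was called with either siRNA. The list's median log2 fold change was −0.23 and −1.05.

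Of 23 chemokine receptors 3 could be tested, and the receptors of the neutrophil chemokines and of CCL20 were not among them. None was called after LIMp27 siRNA-1, and 1 was called higher without control siRNA replicate 1 or without the filter on low counts. After LIMp27 siRNA-2, CXCR4, the receptor of CXCL12, fell by 0.91 (SE 0.12, adjusted p = 1.4e-07) on the log2 scale, and had a log2 fold change of +0.11 (adjusted p = 0.247) after LIMp27 siRNA-1, and the direct difference of −1.01 passed the threshold (adjusted p = 3.8e-09). CXCR5 rose by 0.64 (adjusted p = 0.0135) after LIMp27 siRNA-2, a call that DESeq2 and 2 of the 6 fits with a library left out, without control siRNA replicate 2 (0.49) and without LIMp27 siRNA-2 replicate 1 (0.41), did not give.

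Around IL1RN and IL18, 17 of 29 other interleukin-1 family ligands, receptors and adaptors were tested. After LIMp27 siRNA-1, 8 were lower and 2 higher, and after LIMp27 siRNA-2, 6 were lower and 4 higher, at medians of −0.13 and −0.11. The 2 higher became 1 without LIMp27 siRNA-1 replicate 2 or replicate 3, and in 4 other alternatives. IL1RAP, the co-receptor for interleukin-1 but not for interleukin-18, fell from 17.2 ± 0.868 CPM to 6.0 ± 0.0851 and 7.98 ± 0.905 (SD, n = 3). Its log2 fold changes were −1.52 (adjusted p = 9.3e-13) and −1.09 (adjusted p = 2.7e-09). MYD88, an adaptor of the family's receptors, was lower at −0.29 and −0.48. The kinase gene MAP3K7 had −0.66 and −0.52, and that of its partner TAB2 −0.47 and −0.4, all past the threshold. Of genes chosen after their values were seen, TAB1 (0.18, adjusted p = 0.0427, and 0.34) and IRAK4 (0.33 and 0.5) were higher, past the threshold with both siRNAs. Of 21 genes for the processing of interleukin-1 and interleukin-18, 7 were tested, with 3 lower and 1 higher after LIMp27 siRNA-1, and 4 lower and 3 higher after LIMp27 siRNA-2, where 1 was higher without control siRNA replicate 2 or LIMp27 siRNA-2 replicate 1. NEK7, a partner of the NLRP3 inflammasome, had log2 fold changes of −0.6 (adjusted p = 1.8e-09) and −2.02 (adjusted p = 1.7e-17) and was thus lower with both, as was GSDMB, a gasdermin gene, at −0.5 and −0.53. NLRP3 itself had 4 reads in all 9 libraries and CASP1 had no listed reads, both named after their counts were seen. CASP8 rose by 0.53 and 0.29, while CASP4, which can cleave the interleukin-18 precursor, had −0.22 after LIMp27 siRNA-1 and 0.2 after LIMp27 siRNA-2. The second value of CASP4 lost its call (adjusted p = 0.016) under DESeq2, without the filter on low counts, and without control siRNA replicate 2 (0.16) or LIMp27 siRNA-2 replicate 1 (0.17).

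Osteopontin binds integrins and CD44 and is cut by proteases. Of 21 genes for its receptors, relatives and processing 7 were tested, with 4 lower and 3 higher after LIMp27 siRNA-1, and 4 lower and 1 higher after LIMp27 siRNA-2, where 2 were higher without control siRNA replicate 2 or LIMp27 siRNA-2 replicate 1. ITGAV, the αv integrin subunit, fell from 205 ± 13.2 CPM to 118 ± 5.82 and 63.6 ± 1.71 (SD, n = 3), with log2 fold changes of −0.79 (adjusted p = 4.0e-14) and −1.68 (adjusted p = 1.5e-19). CD44 was lower at −0.19 and −0.26, and ITGB6 at −0.23 and −0.19. Other integrin subunit genes, chosen after their values were seen, differed from these. ITGB5 was higher at 0.17 and 0.43, both past the threshold, and ITGB1 had −0.44 and 0.12, of which only the first passed it. MMP7, a protease that cuts osteopontin, rose by 0.17 (adjusted p = 0.00269) after LIMp27 siRNA-1 and fell by 0.98 (adjusted p = 4.3e-14) after LIMp27 siRNA-2, and these differed directly by −1.14 (adjusted p = 3.7e-16).

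Cytokines, growth factors and other secreted inflammatory genes outside the 8 were described as a list of 38. Of these 19 were tested, with 12 lower and 2 higher after LIMp27 siRNA-1 (median −0.79), and 13 lower and 3 higher after LIMp27 siRNA-2 (median −1.26). LIF, an interleukin-6 family cytokine, fell from 80.2 ± 5.03 CPM to 38.7 ± 2.07 and 28.9 ± 1.79 (SD, n = 3). The log2 fold changes were −1.76 and −1.52 for IL32, −0.79 and −2.6 for the urokinase gene PLAU, and −0.99 and −1.33 for its receptor gene PLAUR, all past the threshold. Of genes chosen after their values were seen, TNF (−2.14 and −3.06) and CSF2 (−1.98 and −3.28) were also lower, on 417 and 405 reads over the 9 libraries. MDK, a heparin-binding growth factor gene, was higher (1.32, adjusted p = 2.6e-14, and 0.59, adjusted p = 2.3e-05). CSF3, with a mean of 75.8 CPM, was not called with either siRNA (adjusted p = 0.157 and 0.97).

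Of 25 genes for NF-κB subunits and feedback, all were tested, and 20 were lower and 2 higher after LIMp27 siRNA-1 (median −0.47), against 14 lower and 3 higher after LIMp27 siRNA-2 (median −0.38). BIRC3 fell from 90.8 ± 2.57 CPM to 8.35 ± 0.347 and 19.8 ± 3.73 (SD, n = 3), the widest difference of this list. The inhibitor genes NFKBIA and TNFAIP3 fell, with −0.66 and −0.81 for NFKBIA and −1.27 and −1.71 for TNFAIP3, and OTULIN, a deubiquitinase gene, had −0.83 and −0.85. Not all inhibitor genes fell, since NFKBIB, chosen after its values were seen, rose by 0.48 and 0.86, both past the threshold. Of 20 genes for AU-rich mRNA decay and stability, 9 were lower and 3 higher after LIMp27 siRNA-1 (median −0.09), and 12 lower and 4 higher after LIMp27 siRNA-2 (median −0.31). ZFP36L2, which promotes decay of AU-rich mRNAs, had log2 fold changes of −1.63 and −0.82, RC3H2 −0.43 and −0.96, and MAPK14 −0.36 and −0.71, all past the threshold, while TIA1, a repressor of AU-rich mRNA translation, rose by 0.48 and 0.51. HNRNPA0, the AU-rich RNA-binding protein gene that the study pairs with LIMp27, chosen after its values were seen, rose by 0.25 (adjusted p = 1.6e-05) and 0.52 (adjusted p = 1.3e-09). By its own assays, the paper reported no change of hnRNPA0 in WiDr cells when LIMp27 was silenced. The lists were chosen with earlier results of these data known. They describe these libraries and were not tested as sets.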

How the data were processed

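Strand-specific RNA-seq was analysed from 9 libraries of WiDr cells, 3 each with control siRNA, LIMp27 siRNA-1 and LIMp27 siRNA-2, grouped by the labels. The authors deposited a table for each LIMp27 siRNA, with raw read counts per gene in its libraries and in the control libraries, and the control counts were the same in both. Deposited FPKM values scale the authors' counts by the library's reads in genes and by the average length of the transcripts annotated for a gene, which was checked to within 1% for 100% of the genes against GENCODE 29. The submitters' notes name CASAVA and GRCh38, and the aligner and counting program are not given in the sources used here. A gene is listed only from 2 reads over a table's 6 libraries. The authors' own size-factor-scaled values, fold changes and p-values were not used.

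Each comparison was fitted on its own 6 libraries with edgeR 4.0.16 in R 4.3.3 (TMM, filterByExpr with a minimum count of 10, quasi-likelihood test), with Benjamini-Hochberg adjustment over all tested genes and a threshold of 0.05. The SE of a log2 fold change was obtained from its F statistic, and 95% intervals reach 1.96 SE to each side. The fits were tested on simulated data. For correlations, 0.5 was added to CPM before taking log2.

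The members and the 8 related lists were chosen with earlier results of these data known. Genes named are the members, the CXC cluster's genes, the 3 genes most correlated with SPP1, IL1RN and CXCL8, and in each list up to 4 called genes with the smallest larger adjusted p of both siRNA comparisons (for a list with fewer than 2 called, also the 2 most abundant), besides genes said to be chosen after their values were seen. Promoters are from RefSeq, matched by symbol for 7 of the 8 genes. For 3′ UTRs, 1 APPRIS principal transcript was used per gene (the one with the most 3′ UTR bases, at least 30), and percent identity comes from global alignment with Biopython 1.88. Alternatives were RLE size factors, DESeq2 1.42.0, a fit without the filter, a replicate block, a joint fit of all 9 libraries, each library left out, plain read totals for levels, and the summed counts of CXCL1, CXCL2 and CXCL3.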

Additional observations from a re-analysis of the deposited data

Results flagged for a closer look

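The difference between the 2 LIMp27 siRNAs, tested directly, drew attention to 3 of the 8 genes. Of all tested genes, 22.4% were called lower and 23.1% higher in that comparison, so such calls were common. CXCL8 was lower after LIMp27 siRNA-2 than after LIMp27 siRNA-1 by a log2 fold change of −0.84, and IL1RN by −0.96, while IL18 was higher by 0.57. Each of these passed the threshold (adjusted p = 1.1e-11, 3.5e-04 and 2.2e-06 by edgeR's quasi-likelihood test with Benjamini-Hochberg adjustment), and each did so under all 11 alternatives run, with values from −0.95 to −0.78, from −1.1 to −0.74 and from 0.53 to 0.61.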

How the results depend on the processing

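Of 132 recomputed counts over all genes and over the 8 genes, 131 were within 1.5 times the value reported. The exception was the number of the 8 genes higher after LIMp27 siRNA-2 than after LIMp27 siRNA-1, which ranged from 1 to 2 over the left-out libraries, 2 without LIMp27 siRNA-2 replicate 1, where CXCL3 joined IL18. Of 528 recomputed counts over the related lists, 28 moved by more than that, all of them between counts of 0 to 3. With the replicate block, 7 of the 8 genes were lower after LIMp27 siRNA-1 and 6 after LIMp27 siRNA-2, and 3981 and 4223 of all genes were lower, beside 4066 and 4120 without it. Over the genes past the filter, same-numbered libraries did not deviate together (correlations from −0.081 to 0.056, beside −0.115 to 0.135 for other pairs). That check could miss a batch that touches few genes, so whether they share more than a number is not known. The block changed no call among the 8 genes. DESeq2 called 3582 and 3823 of all genes lower with the 2 siRNAs. Directions turned for differences near 0. With a library left out, the log2 fold change of CXCL2 after LIMp27 siRNA-1 ranged from −0.29 to 0.08, and for LIMp27 siRNA-2 against LIMp27 siRNA-1 that of GSDMB from −0.14 to 0.06, of OTULIN from −0.08 to 0.04 and of TIA1 from −0.05 to 0.09. With CXCL1, CXCL2 and CXCL3 summed, the direct difference of 0.54 for CXCL3 became −0.03, and the sums against control siRNA were −0.67 and −0.71. Of 1219 recomputed fold changes of single genes, 1186 kept direction and call. Depth limits CCL20 most, with 33 reads over the LIMp27 siRNA-2 libraries. Matches of the siRNAs to these transcripts were not analysed here.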
